A study of Sus scrofa with 7 samples.

Results

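Leukaemia inhibitory factor (LIF) acts through a receptor made of LIFR, the LIF-binding subunit, and IL6ST (gp130), the subunit that all cytokines of the interleukin 6 family share. The Janus kinases JAK1 and JAK2 sit on the receptor and phosphorylate STAT3, which then enters the nucleus and switches on target genes, among them those of its own inhibitors. SOCS1 and SOCS3 block the kinases and the receptor, SOCS2 and CISH are feedback inhibitors best known from growth hormone and STAT5 signalling, and PIM1 is a serine/threonine kinase gene that STAT3 and STAT5 switch on. In mouse ESCs the pathway is known for holding the naïve state, and in the mouse blastocyst it is known to act on the primitive endoderm too. The RNA of these 10 genes is described here in porcine extra-embryonic endoderm (pXEN) cells and in 2 kinds of porcine embryonic stem cells.

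The genes were chosen by name as the receptor, its kinases, STAT3, the SOCS-family feedback inhibitors and PIM1, and 10 of the 29510 genes listed are members. A total of 8 were listed under their own symbol. LIFR had no symbol in the table and was found by its Ensembl identifier, and CISH was listed as CISH_TV2, a synonym of the gene. All 10 had enough counts to be tested, and none shared its span with another listed gene.

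RNA was sequenced from 3 pXEN lines, 2 naïve-like ESC (nESC) lines and 2 primed ESC (pESC) lines, with 1 library per line, so that p-values measure the spread between these lines. The pXEN lines came from the inner cell masses of parthenogenetic blastocysts and grew on mouse embryonic fibroblasts with LIF, the GSK3 inhibitor CHIR99021, dimethindene maleate, minocycline, Y27632 and serum, and were at passages 26, 26 and 23. The nESC lines, at passages 21 and 22, grew on the same feeders with LIF, FGF, CHIR99021, the MEK inhibitor PD0325901, the TGFβ receptor inhibitor SB431542 and doxycycline. The pESC lines, which the sample labels give as converted from nESCs, were both at passage 20 and grew on STO fibroblasts with LIF, activin A, bFGF and EGF. All 3 media thus contained human LIF, while the other additives differed, and the cell type cannot be told apart from its medium. In such bulk samples, a smaller share of cells with a transcript and less of it per cell cannot be told apart either.

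Between 10408164 and 12995720 reads per library fell on genes, and 3 counts, taken as the floor of detection, were worth 0.231 to 0.288 CPM (counts scaled by the library total). Levels are given as FPKM, the fragments counted on a gene scaled by its listed length and by a total for each library. All 8 endoderm markers were higher in the pXEN lines than in both kinds of ESC, and their summed level was 2199 to 2640 FPKM in pXEN lines, 21.6 to 25.8 in nESCs and 142 to 152 in pESCs. Of the pluripotency genes, the counts of SOX2 were 0 in pXEN lines 1 and 3 and 30 in line 2, ESRRB had 0 counts in all 3, and POU5F1 had at most 5 counts in any library. NANOG, LIN28A and SALL4 were higher in the pXEN lines than in both kinds of ESC. UTF1 was lower than in pESCs and had 4, 21 and 3 counts in pXEN lines 1, 2 and 3 beside 0 and 1 in nESCs, so that line 2 carried most of them. The summed FPKM of 10 fibroblast genes was 19.2, 255 and 22.3 in pXEN lines 1, 2 and 3, 36.2 and 44.6 in the nESC lines, and 69.2 and 99.6 in the pESC lines, so that pXEN line 2 stood apart. In line 2, COL1A1 (144 FPKM) and COL3A1 (77.5 FPKM) made up most of the sum. LUM, THY1 and POSTN were also highest in line 2. COL1A2, DCN and PDGFRB were higher in at least 1 pESC line, and TWIST1 and FBN1 in every ESC line. Whether fibroblasts were present in the sample was not tested. For the 10 genes, results without line 2 are given where a call changed. The summed level of 5 leukocyte genes was 2.21 to 3.87 FPKM throughout.

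Each receptor gene was called in 1 of the 3 comparisons, with fold changes far below those of SOCS1 and PIM1 against nESCs. LIFR lies on chromosome 16 of the build Sscrofa10.2 (chr16:24923878-25016513, minus strand), with a long listed length of 12591 bases. Its level was 3.05, 2.41 and 3.43 FPKM in pXEN lines 1, 2 and 3, 4.14 and 3.43 FPKM in nESC lines 1 and 2, and 5.38 and 5.74 FPKM in pESC lines 1 and 2. The pESC lines were above all other lines, whereas the highest pXEN line and the lowest nESC line had the same level to 3 digits. LIFR was lower in pXEN cells than in pESCs, with a log2 fold change of −0.90 ± 0.16 (SE; edgeR adjusted p = 0.0026), and this call was kept in every alternative and without any 1 line. Where a line was left out of a group of 2, the spread came from the other groups and the lone library was assumed to vary like them, so that a call lost in this way does not show that the difference went away. The difference from nESCs was −0.36 ± 0.16 (edgeR adjusted p = 0.0994), and that between pESCs and nESCs was 0.54 ± 0.18 (edgeR adjusted p = 0.0522). The latter was called without pXEN line 2 (adjusted p = 0.00793) or pXEN line 3 (0.0433).

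IL6ST is on the same chromosome (chr16:37476140-37522640, plus strand). It was listed at 43.3, 32.7 and 50.9 FPKM in the pXEN lines, 29.5 and 35.7 FPKM in the nESC lines, and 58.7 and 60.8 FPKM in the pESC lines. The pXEN lines overlapped with the nESC lines, and pESC lines were again the highest. IL6ST was higher in pESCs than in nESCs by 0.86 ± 0.20 on the log2 scale (edgeR adjusted p = 0.0130), a call that was lost without nESC line 1, pESC line 1 or pESC line 2 (adjusted p between 0.0627 and 0.0972), while the fold change was 0.72, 0.89 and 0.84. The pXEN cells differed from nESCs by 0.37 ± 0.18 (edgeR adjusted p = 0.121) and from pESCs by −0.49 ± 0.18 (edgeR adjusted p = 0.0512). Without pXEN line 2, the line with the high fibroblast sum, these became calls at 0.52 (edgeR adjusted p = 0.0052) and −0.34 (edgeR adjusted p = 0.0390). Without pXEN line 3 the difference from pESCs was called too (adjusted p = 0.0198).

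Per listed length, IL6ST exceeded LIFR in every line, by 13.6 to 14.8 times in pXEN cells, 7.12 and 10.4 times in nESCs and 10.6 and 10.9 times in pESCs. The genes of chromosome 16 as a whole were lower in pXEN cells than in nESCs, with a median log2 fold change of −0.73 over 298 genes tested, and lower in pESCs than in nESCs, with a median of −0.50. Relative to these medians, LIFR stood at 0.38 and IL6ST at 1.10 in pXEN cells against nESCs, and at 1.04 and 1.36 in pESCs against nESCs. For LIFR in pXEN cells against nESCs, which was not called, the sign thus differed between the scales, while in pESCs against nESCs both values were above 0. Against pESCs the chromosome's median was −0.05.

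**Figure D1:**
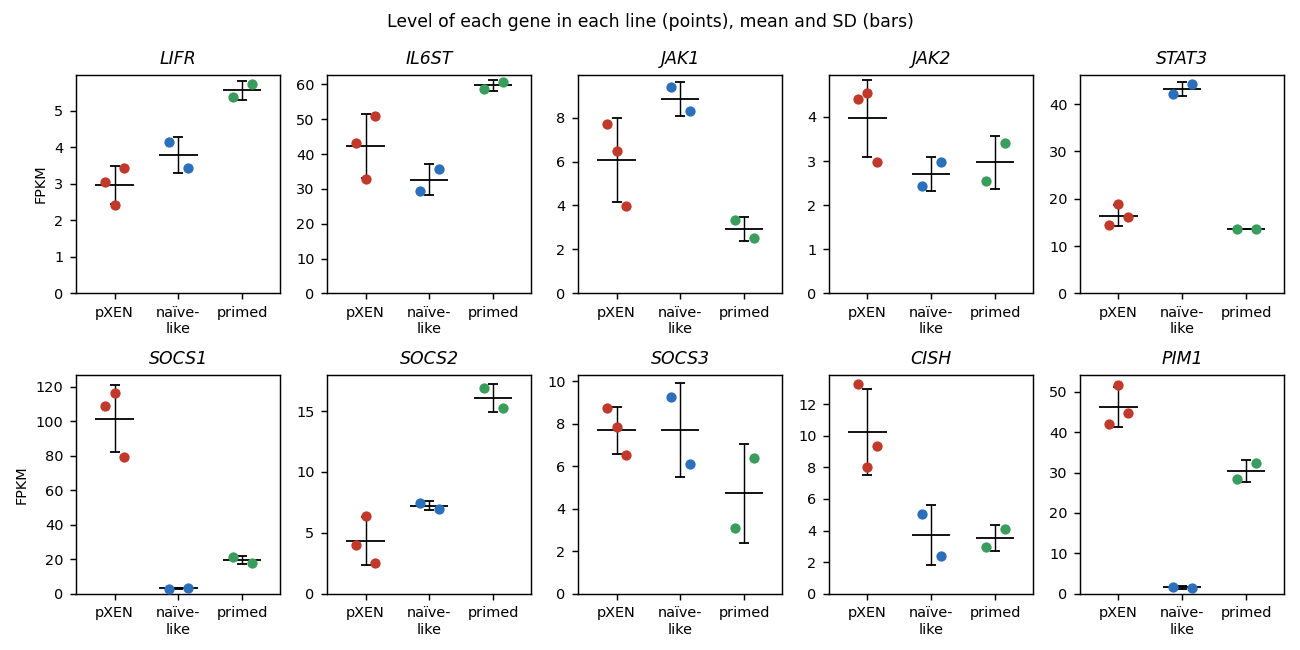
Level of the 10 genes in FPKM (vertical axes, each starting at 0) in 3 pXEN, 2 naïve-like ESC and 2 primed ESC lines; each point is 1 line, the horizontal bar is the mean and the error bar the SD. SOCS1 lay at 79.4 to 116 FPKM in pXEN lines and at 2.87 and 3.19 in naïve-like lines, while STAT3 was highest in the naïve-like lines, at 42.2 and 44.3.

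JAK1 and JAK2 were listed at no more than 9.38 FPKM in any line. JAK1 (chr6:135899356-135917892, minus strand), the kinase mainly used by gp130 receptors, has a short listed length of 1142 bases, and its counts were between 39 and 130 per library. Its level was 7.73, 6.47 and 3.98 FPKM in the pXEN lines, 9.38 and 8.31 FPKM in the nESC lines and 3.33 and 2.53 FPKM in the pESC lines. The 3 ranges did not overlap, with the nESC lines highest and the pESC lines lowest. JAK1 was lower in pESCs than in nESCs, with a log2 fold change of −1.61 ± 0.37 (edgeR adjusted p = 0.0127) and higher in pXEN cells than in pESCs by 1.05 ± 0.34 (edgeR adjusted p = 0.0351). The first call was lost without nESC line 1, pESC line 1 or pESC line 2 (adjusted p between 0.0535 and 0.0958), and the second without pXEN line 1 or any of the 4 ESC lines (adjusted p between 0.0554 and 0.198). The fold changes stayed between −1.81 and −1.42 and between 0.85 and 1.29 without any 1 line. The difference between pXEN cells and nESCs was −0.55 ± 0.32 (edgeR adjusted p = 0.180).

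JAK2 (chr1:242696463-242786177, minus strand), the kinase of the growth hormone and erythropoietin receptors, was listed at 4.40, 4.53 and 2.97 FPKM in the pXEN lines, 2.44 and 2.98 FPKM in the nESC lines and 2.54 and 3.40 FPKM in the pESC lines. These ranges overlapped in all 3 comparisons, and none was called. The log2 fold change was 0.54 ± 0.26 against nESCs (edgeR adjusted p = 0.113) and 0.42 ± 0.26 against pESCs (edgeR adjusted p = 0.213). Without pXEN line 3, the lowest of the pXEN lines, JAK2 was called higher than in nESCs (adjusted p = 0.0437).

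STAT3 (chr12:20711742-20775571, minus strand) was highest in nESCs, as JAK1 was. Its level was 14.5, 18.8 and 16.0 FPKM in the pXEN lines, 42.2 and 44.3 FPKM in the nESC lines and 13.7 and 13.7 FPKM in the pESC lines. Both nESC lines were above the 5 other lines, and those 5 lay close together. For STAT3 the log2 fold change of pXEN cells against nESCs was −1.40 ± 0.13 (edgeR adjusted p = 6.97e-05), and that of pESCs against nESCs was −1.67 ± 0.15 (edgeR adjusted p = 0.000177). Against pESCs, pXEN cells differed by 0.28 ± 0.14 (edgeR adjusted p = 0.134), although the FPKM ranges did not overlap. These 3 outcomes were kept in every alternative and without any 1 line.

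SOCS1, an inhibitor that binds and blocks the Janus kinases, showed the largest fold change of the 10 genes in both pXEN comparisons. It is annotated without an intron (chr3:32671707-32672538, plus strand). Its level was 109, 116 and 79.4 FPKM in pXEN lines 1, 2 and 3 (894, 1114 and 727 counts), 2.87 and 3.19 FPKM in the nESC lines (29 and 31 counts) and 21.3 and 17.8 FPKM in the pESC lines (224 and 200 counts). The 3 ranges were far apart, with pESCs between the other 2 cell types. SOCS1 was 33.3-fold higher in pXEN cells than in nESCs, a log2 fold change of 5.06 ± 0.25 (edgeR adjusted p = 3.2e-06), and 5.22-fold higher than in pESCs (edgeR adjusted p = 6.27e-05). It was also higher in pESCs than in nESCs, by 2.67 ± 0.25 on the log2 scale (edgeR adjusted p = 0.000219).

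PIM1 (chr7:37691963-37697467, plus strand), the kinase gene downstream of STAT3 and STAT5, followed the same order. It was listed at 42.1, 51.7 and 44.7 FPKM in the pXEN lines, 1.76 and 1.34 FPKM in the nESC lines and 28.4 and 32.4 FPKM in the pESC lines. The pXEN and pESC lines were close to each other and both were far above the nESC lines. PIM1 was 29.6-fold higher in pXEN cells than in nESCs, a log2 fold change of 4.89 ± 0.19 (edgeR adjusted p = 1.25e-06), and 19.4-fold higher in pESCs than in nESCs, a log2 fold change of 4.28 ± 0.19 (edgeR adjusted p = 8.08e-06). The difference between pXEN cells and pESCs was smaller, at 0.61 ± 0.14 (edgeR adjusted p = 0.00901), and was not called without pESC line 1, at 0.52 (adjusted p = 0.0951). The calls of SOCS1 in all 3 comparisons and of PIM1 against nESCs were kept in every alternative and without any 1 line.

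SOCS3, the inhibitor best known for binding gp130 itself, did not follow SOCS1. Its entry lies on an unplaced scaffold (GL896293.1, positions 10040 to 10729, minus strand) with a listed length of 489 bases, and it held only 19 to 55 counts per library. The level was 8.71, 7.82 and 6.51 FPKM in the pXEN lines, 9.27 and 6.12 FPKM in the nESC lines and 3.08 and 6.37 FPKM in the pESC lines. The pXEN range lay inside the nESC range, and the second pESC line lay inside it too. No comparison was called, with log2 fold changes of −0.01 ± 0.41 against nESCs (edgeR adjusted p = 0.992), 0.70 ± 0.42 against pESCs (edgeR adjusted p = 0.206) and −0.71 ± 0.45 between pESCs and nESCs (edgeR adjusted p = 0.271). The FPKM of SOCS1 was 12.2 to 14.9 times that of SOCS3 in pXEN lines, 0.310 and 0.521 times in nESC lines, and 6.93 and 2.80 times in pESC lines.

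SOCS2 (chr5:93712449-93717854, minus strand), the inhibitor known for limiting growth hormone signalling, was highest in pESCs and lowest in pXEN cells. Its level was 4.04, 6.39 and 2.56 FPKM in the pXEN lines, 7.49 and 6.96 FPKM in the nESC lines and 16.9 and 15.2 FPKM in the pESC lines. The 3 ranges did not overlap, though pXEN line 2 came close to the nESC lines. SOCS2 was lower in pXEN cells than in pESCs, with a log2 fold change of −1.88 ± 0.32 (edgeR adjusted p = 0.0019), a call kept in every alternative. Its difference from nESCs was −0.74 ± 0.33 (edgeR adjusted p = 0.0883), and without pXEN line 2 it was −1.14 (adjusted p = 0.00197). SOCS2 was higher in pESCs than in nESCs by 1.14 ± 0.35 (edgeR adjusted p = 0.0399), a call lost without pXEN line 1 or any of the 4 ESC lines (adjusted p between 0.0581 and 0.165), with fold changes of 1.07 to 1.22.

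CISH (chr13:36354904-36359051, plus strand), a known STAT5 target, had 18 to 85 counts per library over a listed length of 649 bases. It was listed at 13.3, 8.03 and 9.38 FPKM in the pXEN lines, 5.08 and 2.37 FPKM in the nESC lines and 2.93 and 4.11 FPKM in the pESC lines. All pXEN lines were above all ESC lines, and the 2 kinds of ESC overlapped. CISH was higher in pXEN cells than in nESCs by 1.44 ± 0.43 on the log2 scale (edgeR adjusted p = 0.0225) and higher than in pESCs by 1.54 ± 0.43 (edgeR adjusted p = 0.0200). The first call was lost without pXEN line 1 (adjusted p = 0.0692) or nESC line 2 (0.130), and the second without pXEN line 1 (0.0621), pESC line 1 (0.132) or pESC line 2 (0.0641). The fold changes without 1 line were 1.00 to 2.08 and 1.31 to 1.80. Genes of chromosome 13 were higher in pXEN cells as a whole, with medians of 0.46 against nESCs and 0.40 against pESCs over 1129 genes, and this shift stood at 0.39 and 0.42 in pXEN lines 1 and 3 and at −0.01 in line 2. Less the median of its chromosome, CISH was 1.14 higher than in pESCs and 0.98 higher than in nESCs, and the part of the shift in these results was not tested.

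Across the set, pXEN cells differed from nESCs in 4 genes, of which SOCS1, CISH and PIM1 were higher and STAT3 was lower. In this comparison 54.5% of the 17447 genes tested were called, so that 4 of 10 is no larger a share than that of all genes. From pESCs, pXEN cells differed in 6 genes, beside 48.3% of all genes. JAK1, SOCS1, CISH and PIM1 were the 4 higher ones, beside 23.9% of all genes called higher, and LIFR and SOCS2 the 2 lower ones, beside 24.4%. Between the kinds of ESC, 6 genes were called, with IL6ST, SOCS1, SOCS2 and PIM1 higher and JAK1 and STAT3 lower in pESCs, beside 32.2% of all genes. The comparisons share libraries in pairs and are not independent of each other. FPKM ranges did not overlap for 7, 9 and 7 of the 10 genes, respectively, as for 70.9%, 68.1% and 72.4% of all genes. The median log2 fold change of the 10 genes was 0.18, 0.52 and 0.33, beside a median over all genes of at most 0.01 in size. Without pESC line 1 the second comparison held 3 calls in place of 6, and without nESC line 1, pESC line 1 or pESC line 2 the third also held 3. Under upper-quartile scaling, which moved the fold changes of all genes against nESCs by a median of −0.17, the first comparison held 3 genes higher and 3 lower in pXEN cells, with LIFR and SOCS2 added.

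**Figure D2:**
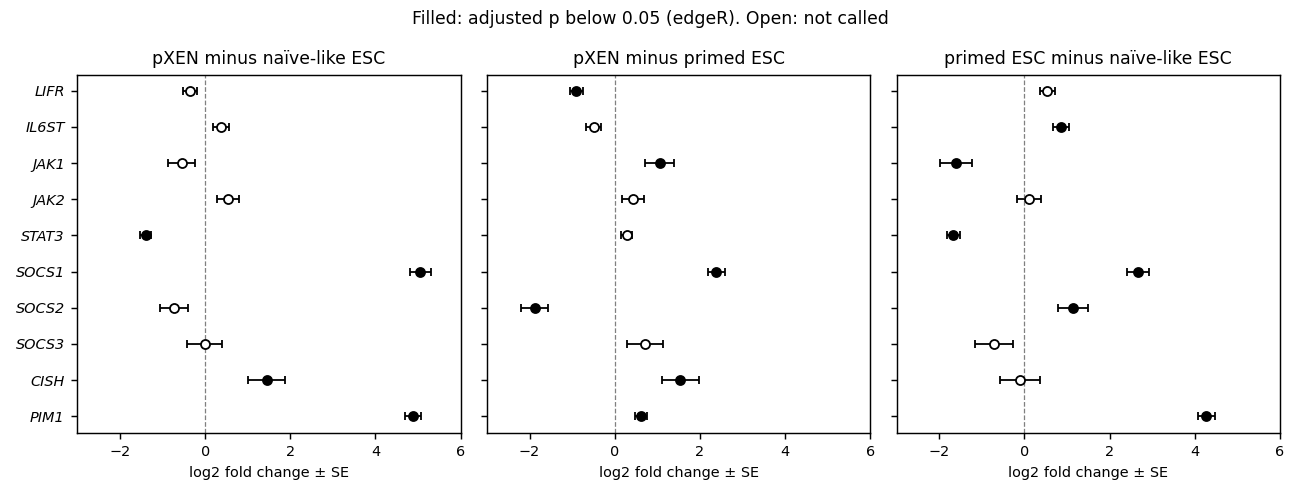
Log2 fold change of each gene (horizontal axis) with its SE in the 3 comparisons, from edgeR; filled points were called at an adjusted p below 0.05 and open points were not. SOCS1 and PIM1 lie at 5.06 and 4.89 for pXEN cells against naïve-like ESCs, and SOCS3 lies near 0 in that comparison.

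The level of the receptor genes was then set beside that of the feedback genes in each line. The summed FPKM of LIFR and IL6ST was 46.4, 35.2 and 54.3 in the pXEN lines, 33.6 and 39.2 in the nESC lines and 64.1 and 66.5 in the pESC lines. The sum over SOCS1, SOCS2, SOCS3, CISH and PIM1 was 177, 190 and 143 in the pXEN lines, 26.5 and 20.0 in the nESC lines and 72.6 and 75.9 in the pESC lines. The receptor sum thus overlapped between pXEN and nESC lines while the feedback sum did not. The feedback sum was 2.63 to 5.41 times the receptor sum in pXEN cells, 0.787 and 0.510 times in nESCs, and 1.13 and 1.14 times in pESCs.

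As a mean over genes on the log2(FPKM + 0.1) scale, the feedback genes stood above the receptor genes by 0.67, 1.07 and 0.09 in pXEN lines 1, 2 and 3 (0.61 ± 0.49, SD, n = 3). They stood below them in every ESC line, at −1.29 and −1.69 in nESCs (−1.49 ± 0.29, SD, n = 2) and −0.84 and −0.66 in pESCs (−0.75 ± 0.13, SD, n = 2). The nESC and pESC lines did not overlap, and pXEN line 3 was close to 0. The mean receptor level was 3.49 in pXEN cells and 3.49 in nESCs on this scale, and 4.20 in pESCs, so that the difference between pXEN cells and nESCs came from the feedback genes, at 4.10 and 2.00. Leaving out SOCS1 and PIM1, an alternative added after the data had been seen, gave −0.71, −0.94 and −1.52 for pXEN cells, nESCs and pESCs. On log2(CPM + 0.1), which does not divide by gene length, the values with all 5 feedback genes were −1.85, −3.96 and −3.21. The sign of the pXEN value therefore depended on these genes and on the scale. Such sums depend on the listed lengths, since the short models of SOCS3 and CISH and the long one of LIFR set their FPKM.

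**Figure D3:**
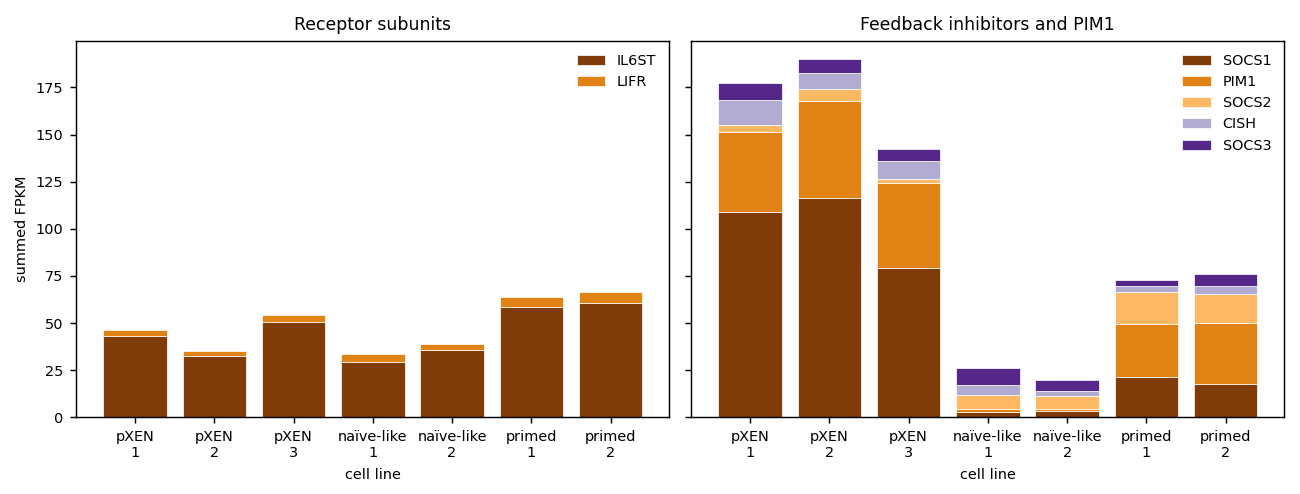
Summed FPKM (vertical axis, shared) of the receptor subunits (left) and of the feedback inhibitors with PIM1 (right), stacked by gene, in each of the 7 lines. The feedback bars reach 143 to 190 FPKM in pXEN lines, with SOCS1 the largest part, and 20.0 and 26.5 FPKM in naïve-like lines.

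The makeup of the feedback sum also differed between the cell types. SOCS1 took 61.5%, 61.1% and 55.7% of it in the pXEN lines, 10.9% and 16.0% in the nESC lines and 29.4% and 23.5% in the pESC lines. In nESCs, the largest parts were SOCS3, at 35.0% and 30.6%, and SOCS2, at 28.3% and 34.8%. PIM1 was the largest part in pESCs, at 39.1% and 42.6%, and took 23.8% to 31.3% in pXEN cells. SOCS3 made up 4.11% to 4.92% of the sum in pXEN cells and 4.24% and 8.39% in pESCs.

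SOCS1 and PIM1 did not run in parallel with STAT3. The FPKM of SOCS1 was 4.95 to 7.54 times that of STAT3 in pXEN lines, 0.0681 and 0.0720 times in nESC lines, and 1.31 and 1.56 times in pESC lines. PIM1 was at 2.75 to 2.91 times the level of STAT3 in pXEN cells, 0.0302 and 0.0417 times in nESCs, and 2.08 and 2.37 times in pESCs. The cells with the most STAT3 RNA thus had the least SOCS1 and PIM1 RNA. RNA levels do not show whether STAT3 was phosphorylated, and the data used here hold no protein measurement. By Western blot, the paper found phosphorylated STAT3 in nESCs but not in pXEN cells, and these blots did not include pESCs.

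Genes whose profile over the 7 lines was most like that of a member were sought among 7752 genes by the root mean square difference of centred log2(FPKM + 0.1) values. Nearest to STAT3 were SIAH2 (0.0902), PSRC1 (0.119) and HSPH1 (0.130). For SOCS1 they were KIAA1147 (0.208), DHRS3 (0.233) and LAMB1 (0.242), a laminin chain that is among the endoderm markers. LIFR was nearest to WDR13 (0.0906), TRIM37 (0.0962) and GRIPAP1 (0.0977), and SOCS3 to RDH14 (0.215), DENND1A (0.239) and DCTN6 (0.246). Over 7 lines of 3 types such likeness is a description of the profile.

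Of 68 further genes of the pathway, listed as ligands, receptors, kinases, STATs, inhibitors and targets, 62 were found and 54 tested. In pXEN cells 20 passed the test as higher and 14 as lower than in nESCs, beside 28.3% and 26.2% of all genes, and 19 as higher and 13 as lower than in pESCs, beside 23.9% and 24.4%. Between pESCs and nESCs, 15 were higher and 10 lower, beside 19% and 13.3% of all genes. Fewer were called there without nESC line 1 or pESC line 2, which left a lone library in a group. Without pXEN line 1, 2 or 3, 31, 38 and 30 were called in pXEN cells against nESCs, in place of 34. Against pESCs, 32, 38 and 28 were called, in place of 32. The shares of all genes in these fits were not counted. The median log2 fold changes of the 54 genes were 0.29, 0.23 and 0.01 in the 3 comparisons. Of the 54, 19 were called in the same direction in both pXEN comparisons, which share the pXEN libraries, with a mean of at least 1 FPKM in 1 cell type. Of these, 13 were higher and 6 lower, beside 17.6% and 15% of all genes that met the same rule. Where a call of a gene named below was lost without 1 line, its fold change kept its direction.

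The ligand genes of the gp130 family were low or restricted. LIF itself was counted 0, 5 and 1 times in the pXEN lines, 8 and 7 times in the nESC lines and 12 and 15 times in the pESC lines, and its lower level in pXEN cells than in pESCs (edgeR adjusted p = 0.0494) was lost without any 1 line other than pXEN line 2. IL6 had 2 counts in pXEN line 2 and 0 in all other lines. CLCF1, a ligand of the ciliary neurotrophic factor receptor, was listed at 10.9, 6.27 and 6.97 FPKM in the pXEN lines, 0.259 and 0 in the nESC lines and 0.945 and 0.978 in the pESC lines, and it passed the test as higher in pXEN cells in both comparisons (edgeR adjusted p = 0.000329 and 0.00298). CNTFR, its receptor subunit, was named after its values had been seen. It was listed at 31.3, 68.8 and 35.9 FPKM in the pXEN lines, 9.37 and 16.9 FPKM in the nESC lines and 147 and 153 FPKM in the pESC lines. CNTFR was therefore highest in pESCs, while CLCF1 was highest in pXEN cells.

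OSMR, the receptor chain that pairs with gp130 to bind oncostatin M, marked the pXEN lines. It was listed at 25.7, 19.2 and 24.1 FPKM in the pXEN lines, 1.36 and 0.807 FPKM in the nESC lines and 0.510 and 0.541 FPKM in the pESC lines. OSMR was higher by 4.40 ± 0.25 on the log2 scale than in nESCs (edgeR adjusted p = 5.69e-06) and by 5.45 ± 0.27 than in pESCs (edgeR adjusted p = 5.61e-06). Per listed length, OSMR was above LIFR in every pXEN line and below it in every ESC line. IL27RA, the receptor chain for interleukin 27, was also higher than in both kinds of ESC, with log2 fold changes of 1.76 and 1.76 (edgeR adjusted p = 2.87e-05 and 4.5e-05).

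**Figure D4:**
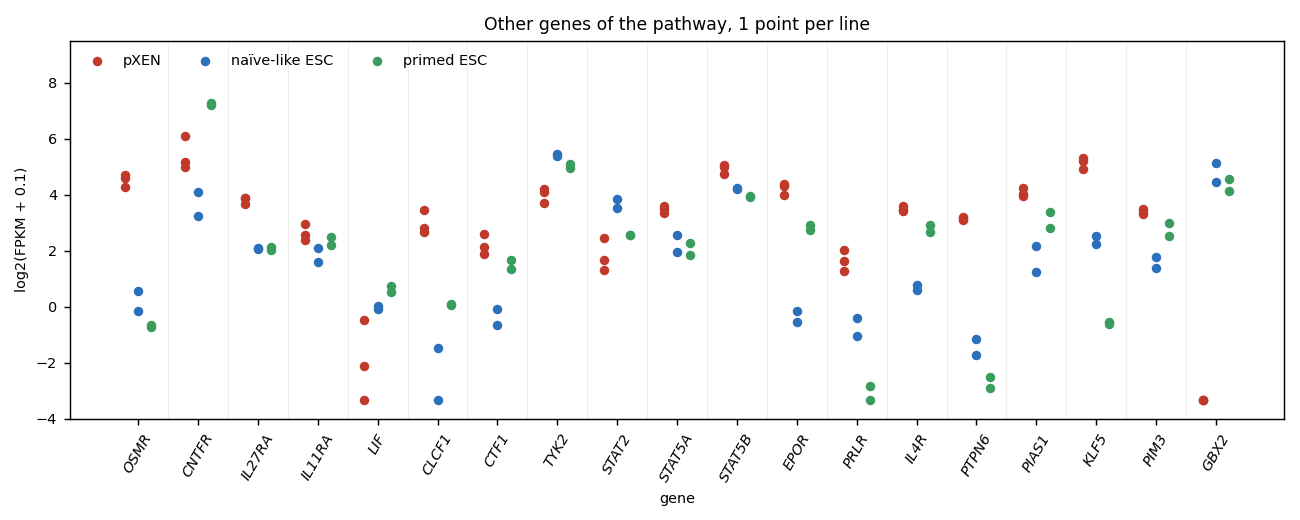
Level of 19 further pathway genes on the log2(FPKM + 0.1) scale (vertical axis), with 1 point per line; the genes were picked for display after their values had been seen. OSMR lies at 19.2 to 25.7 FPKM in pXEN lines and below 1.37 FPKM in ESC lines, and GBX2 is at 0 counts in all 3 pXEN lines.

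Among the other cytokine receptors, calls went both ways. EPOR, the erythropoietin receptor, was listed at 20.7, 15.7 and 19.5 FPKM in the pXEN lines, 0.589 and 0.799 FPKM in the nESC lines and 7.40 and 6.64 FPKM in the pESC lines, and pXEN cells exceeded both by 4.73 ± 0.25 and 1.42 ± 0.19 on the log2 scale (edgeR adjusted p = 3.94e-06 and 0.000591). IL4R, the interleukin 4 receptor chain, was higher by 2.86 and 0.71 on the log2 scale, though the call against pESCs was lost without pESC line 2. PRLR, the prolactin receptor, was higher than in nESCs by 2.56 on the log2 scale, and it had 1 and 0 counts in the pESC lines beside 50 to 89 in the pXEN lines. LEPR, the leptin receptor, and CSF2RB, the shared chain of the interleukin 3 family, ran the other way. CSF2RB had 0 counts in the 3 pXEN lines, 1 and 3 counts in the nESC lines, at or under the floor, and 561 and 646 counts in the pESC lines. Its call against nESCs (edgeR adjusted p = 0.0252) was lost without nESC line 2 (0.181). LEPR had at most 1 count in pXEN lines, 11 counts in each nESC line and 292 counts in each pESC line. STAT5A and STAT5B were both higher in pXEN cells, by 1.21 and 0.71 than in nESCs and by 1.43 and 1.01 than in pESCs (edgeR adjusted p between 0.000303 and 0.00307).

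The other kinases, inhibitors and interferon genes also held calls in both directions. TYK2, the other Janus kinase that gp130 receptors use, was lower in pXEN cells, with log2 fold changes of −1.40 against nESCs and −1.02 against pESCs. PTPN6 (SHP-1), a phosphatase that acts on Janus kinases, was listed at 8.94, 9.04 and 8.56 FPKM in the pXEN lines and at no more than 0.348 FPKM in any ESC line. PIAS1 and PIAS3, which bind activated STATs, were higher in pXEN cells than in nESCs by 2.32 and 0.94 on the log2 scale and than in pESCs by 0.98 and 0.67. The calls against pESCs were lost for both without pESC line 1, and for PIAS1 also without pXEN line 3. PTPN1, a phosphatase of JAK2 and TYK2, was lower, at −0.79 and −1.01. IFNAR2, an interferon receptor chain, was higher by 1.67 and 1.30, the second call lost without pESC line 2. IFNGR1, the interferon gamma receptor chain, was lower than in nESCs, at −4.18. IFNGR1 had 0, 13 and 2 counts in pXEN lines 1, 2 and 3, mostly in line 2, and 87 and 112 in the nESC lines. Its call against pESCs (edgeR adjusted p = 0.0304) was lost without any 1 line other than pXEN lines 1 and 2. Of SOCS4 to SOCS7, only SOCS5 was called in any comparison, lower in pXEN cells than in nESCs at −0.60 (edgeR adjusted p = 0.0183).

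Of 12 further genes known as STAT3 targets that were tested, 2 were called higher in pXEN cells and 4 lower than in nESCs, and 5 higher and 3 lower than in pESCs. The shares of all genes called were 28.3% and 26.2% in the first comparison and 23.9% and 24.4% in the second. KLF5, a factor known from the naïve state and the trophectoderm, was listed at 30.5, 39.7 and 37.1 FPKM in the pXEN lines, 4.68 and 5.62 FPKM in the nESC lines and 0.592 and 0.554 FPKM in the pESC lines. GBX2, a homeobox gene downstream of STAT3 in mouse ESCs, had 0 counts in all 3 pXEN lines and 34.9 and 22.0 FPKM in the nESC lines, so that it was at least 122-fold lower in pXEN cells, taken at 3 counts per library. In pESCs GBX2 was at 17.5 and 23.7 FPKM, and the pXEN cells were at least 86.3-fold lower.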

How the data were processed

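RNA-seq of 7 lines was analysed from the tables the authors deposited: unnormalized read counts per gene and FPKM per gene, the count scaled by listed gene length and a library total that differed from the sum of the counts. Per the labels and the submitters' processing notes, rRNA-depleted directional libraries were aligned to Sscrofa10.2 with HISAT2 2.0.5, counted with featureCounts 1.5.0-p3 and compared with edgeR 3.22.5. The strand setting of the counting is not given in the sources used here, so antisense reads may be included. No column of another series was present. Each of the 10 genes had 1 entry. Where a further gene had 2 entries, as KLF5, STAT5A and IL6 did, only the one with most counts was used. The 10 genes and all lists were chosen with earlier results of these data known.

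Counts were tested with edgeR 4.0.16 (quasi-likelihood, TMM, filterByExpr, all 7 libraries, R 4.3.3), with Benjamini-Hochberg adjustment over 17447 genes, two-sided, and calls at an adjusted p below 0.05, the study's threshold. The SE was the log2 fold change divided by the square root of F. The biological coefficient of variation was 0.223. The test was first checked on simulated counts. Alternatives used DESeq2 1.42.0, limma 3.58.1 on log2(FPKM + 0.1), other scalings, filters and sets of libraries. Sums and ratios used the deposited FPKM, with no test. Of the further pathway genes, those called in both pXEN comparisons in 1 direction, with a mean of at least 1 FPKM in 1 cell type, were to be named (at most 20), with LIF and IL6, and genes outside this rule are marked or appear as lists. The likeness search took genes with a mean log2 CPM of at least 3. 1 further pathway gene is counted in the lists but not reported here. The floor of 3 counts covers counting error only.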

Additional observations from a re-analysis of the deposited data

How the results depend on the processing

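Of the 30 fold changes of the 10 genes, 14 kept their direction and their side of the threshold in every alternative with a test. Over all alternatives, 421 values kept both, 18 passed the threshold newly, 24 no longer passed it, 8 changed sign and 6 moved relative to the median of the chromosome, among them LIFR between pXEN cells and nESCs, from −0.36 to 0.38. The other sign changes were of fold changes of JAK2, SOCS3 and CISH that were not called. JAK2 between pESCs and nESCs ranged from −0.10 to 0.32 when 1 line was left out, with −0.02 without nESC line 1 and −0.10 without pESC line 2. SOCS3 between pXEN cells and nESCs was 0.017 with limma, 0.094 with the replicate block, 0.10 without pXEN line 3 and 0.31 without nESC line 1, in a range of −0.27 to 0.31. CISH between pESCs and nESCs was 0.55 without nESC line 1 and 0.13 without pESC line 1, in a range of −0.53 to 0.55. The cause was not tested.

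Leaving out 1 line at a time gave 3 to 6, 3 to 7 and 3 to 7 calls among the 10 genes for pXEN against nESC, pXEN against pESC and pESC against nESC, and 27 to 38, 22 to 38 and 13 to 33 calls among the further pathway genes. Requiring 10 counts in every library left 36 of the latter, of which 22, 21 and 15 were called, since fewer genes were tested. Only the 8 genes under their own symbol gave 3, 4 and 6 calls. The shares of all genes called were not counted for the fits that left out a line or set a count minimum. Beyond single lines, IL6ST against pESCs was called under upper-quartile scaling, DESeq2, no filter and the block (adjusted p between 0.0301 and 0.0399), LIFR between pESCs and nESCs under DESeq2, the count minimum, the block and a fit of those libraries alone (0.0104 to 0.0494), and SOCS2 between pESCs and nESCs was lost with limma (0.0609). JAK1 against pESCs was lost in a fit of those libraries alone (0.0614).

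Feedback minus receptor level was 1.92, −0.66 and 0.19 for pXEN cells, nESCs and pESCs as the log2 ratio of summed FPKM, −1.85, −3.96 and −3.21 on log2(CPM + 0.1), which does not divide by length, and −0.71, −0.94 and −1.52 without SOCS1 and PIM1. Leaving out 1 line moved it to 0.38 to 0.87, −1.69 to −1.29 and −0.84 to −0.66. The mean of the pXEN lines was the highest under each of these, but its sign depended on the scale and on SOCS1 and PIM1. The sign of the pESC value turned with the sums, and pESCs lay above nESCs under all of these except without SOCS1 and PIM1, where the order was reversed.

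The deviations of same-numbered lines from their group means had correlations of −0.0089 to 0.0442. In a group of 2 lines the deviations mirror each other, so these values do not show whether lines share an origin. With the replicate block, 5, 7 and 7 of the 10 genes and 25, 28 and 22 further genes were called. JAK2 was then called against nESCs (adjusted p = 0.0411), and IFNGR1 against pESCs (0.0924) and CSF2RB against nESCs (0.0662) were not. The counts of SOCS3, CISH and JAK1 were at most 130 in a library, and no test of depth was run.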
